A study of Mus musculus with 1115 samples.

Results

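The Hedgehog coreceptors and Gli factors are 8 genes chosen by name, out of 16839 genes in the count table: the coreceptors Gas1, Boc and Cdon, the receptor Ptch1, the signal transducer Smo, and the transcription factors Gli1, Gli2 and Gli3. All 8 had reads in the table, and their level and detection are given here for the cell classes, clusters and cell cycle phases that the authors deposited. The cells came from the cerebral cortex of wild type C57BL/6 mouse embryos at embryonic day 13.5. Cells had been electroporated in utero with 1 plasmid that carries mRFP behind the CAG promoter and GFP behind the Hes5 promoter, a reporter of Notch activity, so only cells that took up the plasmid were sampled. The Hes5_GFP group holds the double-positive cells (65.6% of 1115), and the CAG_mRFP group those with mRFP but no GFP (34.4%). Each library is 1 cell.

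Hedgehog signalling starts when a secreted ligand binds Ptch1, a membrane protein that otherwise keeps Smo inactive. Gas1, Boc and Cdon sit at the cell surface, bind the ligand together with Ptch1 and raise the cell's sensitivity to it. Active Smo changes the processing of the Gli proteins in the primary cilium: Gli2 acts mainly as the activator, Gli3 mainly as a repressor in the absence of ligand, and Gli1 is itself a target gene that adds to the activation. In the dorsal telencephalon, from which the cortex forms, Gli3 is known for keeping ventral genes off. Ptch1 and Gli1 are the target genes most often used to read pathway activity. The ligand genes Shh, Ihh and Dhh are not in the count table, so no level is given for them.

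The authors called 57.04% of the cells RGCs, 17.1% IPCs and 25.8% ENs. Marker lists set RGCs apart from ENs, while the intermediate progenitor list, of which Sstr2, Elavl4 and Dll3 were higher in ENs than in IPCs, set both apart from RGCs: 15 radial glia markers summed to 6834 CPM (counts per 1e+06 counts, from the summed counts of a class) in RGCs and 409.1 CPM in ENs, 10 intermediate progenitor markers to 4093 CPM in IPCs (3687 to 4828 over the sort days), 3217 CPM in ENs (2270.5 to 3584) and from 322.2 to 579.3 CPM over the sort days in RGCs, and 15 cortical neuron markers to 29336 CPM in ENs and 2194 CPM in RGCs. eGFP was read in 60.3% of Hes5_GFP cells and 12.8% of CAG_mRFP cells, and Hes5 was at 48.6 and 10.9 CPM, in the direction of the labels. mRFP, which both groups carry on the same plasmid, was at 4674.8 CPM in Hes5_GFP cells and 1628.5 CPM in CAG_mRFP cells. The share of cells with an mRFP read was lower in Hes5_GFP cells. The part of the mRFP level in the differences between sort groups was not tested. The 5 sort dates in the deposited cell table serve as replicates where a date held at least 10 cells of a kind, which left 4 sort days, numbered by date. The labels do not say which embryos a sort day held. The p-values rest on how much the difference between groups or phases varied from sort day to sort day, not on animals. Plates are not a column of the cell table and were read here from the middle part of the cell names. Plates whose names differ only in a last letter were joined as a plate batch. Total counts ran from 814 to 1982807 per cell with a median of 264021, and 1 plate of 80 CAG_mRFP cells had a median of 30740. Reads carry no molecular identifiers, so the intervals given for shares of cells cover counting error only. Markers of other cell types were low in RGCs: 10 of 15 ventral telencephalon markers were in the table and summed to 18.2 CPM in RGCs (4.41 to 57.1 over sort days) and 3.36 CPM in ENs (0.0431 to 9.44), and 6 of 7 endothelial markers to 16.2 CPM (0.0569 to 43.8) and 0.111 CPM (0.0215 to 0.286). In ENs 7 of those ventral markers and 3 of those endothelial markers were at 0. Cajal-Retzius markers (3 of 7 in the table) summed to 0.646 CPM in RGCs (0 to 1.19) and 126.3 CPM in ENs (77.5 to 245.4). The part of these lists in the differences between classes was not tested.

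All 8 genes are protein coding in GENCODE M21 on GRCm38. Gas1 is a gene of 1 exon on the minus strand, chr13:60174405-60177365, and part of its exon is shared with an exon of the lincRNA Gm48488 on the other strand. Boc lies on the minus strand at chr16:44485049-44558897, Cdon on the plus strand at chr9:35421128-35507652, Ptch1 on the minus strand at chr13:63508328-63573598 and Smo on the plus strand at chr6:29735503-29761365. Gli1 lies on the minus strand at chr10:127329882-127341974, Gli2 on the minus strand at chr1:118834132-119053619 and Gli3 on the plus strand at chr13:15463235-15730026. Exons of Gli1 and Gli3 also share bases with opposite-strand genes (Arhgap9 and Gm47200 for Gli1, Gm6556 for Gli3). The counting is not stated to use strand, so reads from these overlaps cannot be assigned to either gene.

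RefSeq promoter windows (GRCm38.p6, 250 bases before to 50 after the start) were found for 6 of the 8 genes, all but Gli1 and Boc. The Gli binding motif GACCACCCA was in 0 of these 6 windows and in 0.253% of 32851 windows of that length, and its core CCACCCA, which every GACCACCCA also contains, was in 0 of 6 and in 9.3% of windows. Both strands were searched, and no match says only that these letters are not in these windows. The windows differed in CpG dinucleotides: 47 for Ptch1, 39 for Gli3, 28 for Gli2, 17 each for Smo and Gas1, and 3 for Cdon, against a median of 7 over all windows. The start sites of the Cdon and Ptch1 windows lie 30.9 and 7.86 kb inside the GENCODE genes, so these windows belong to internal starts, and the windows at the 5′ ends of these 2 genes were not used here. The 250 bases upstream of Gli2 (chr1:119053620-119053869, minus strand) and Gas1 (chr13:60177536-60177785, minus strand) are printed because these are the 2 members whose RGC levels on days 1 and 2 were both over 4-fold those on days 3 and 4, as described further on. Both are 5′ to 3′ on the gene's strand with each CpG in capitals.
Gli2: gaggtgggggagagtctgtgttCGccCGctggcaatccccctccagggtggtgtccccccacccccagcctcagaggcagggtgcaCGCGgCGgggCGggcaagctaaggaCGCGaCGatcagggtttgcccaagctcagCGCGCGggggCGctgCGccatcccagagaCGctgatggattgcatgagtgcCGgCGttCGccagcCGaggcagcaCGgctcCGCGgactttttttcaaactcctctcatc
Gas1: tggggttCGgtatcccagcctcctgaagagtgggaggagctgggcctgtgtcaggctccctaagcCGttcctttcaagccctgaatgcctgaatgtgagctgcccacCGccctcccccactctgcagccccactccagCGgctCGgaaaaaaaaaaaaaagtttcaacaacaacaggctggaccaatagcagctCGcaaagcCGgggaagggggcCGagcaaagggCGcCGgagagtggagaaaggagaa

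RGCs carried the highest daily mean of 6 of the 8 genes, all but Boc and Gli1, and the steepest fall towards ENs was that of Gas1, a coreceptor anchored in the outer membrane. Summed over the RGCs of a sort day, Gas1 was at 489.9, 513.6, 111.2 and 88.9 CPM on days 1 to 4 (300.9 ± 232.3, SD, n = 4 days). In IPCs it was at 91.3, 55.4, 27.3 and 12.9 CPM (46.7 ± 34.6, n = 4), and in ENs, which reached 10 cells only on days 2 to 4, at 0.114, 0.387 and 0.215 CPM (0.239 ± 0.138, n = 3). RGCs were above IPCs on 4 of 4 days and above ENs on 3 of 3 days. Levels of days 1 and 2 lay far above those of days 3 and 4 within RGCs, so the RGC and IPC ranges overlapped although no single day reversed the order. Classes are compared by description only, since the authors assigned them from the same transcriptomes.

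Boc, an immunoglobulin-family coreceptor, was the member that IPCs held at the level of RGCs. Its RGC levels were 173.3, 77.7, 121.2 and 113.3 CPM (121.4 ± 39.5, n = 4), its IPC levels 208.4, 165.2, 94.5 and 70.7 CPM (134.7 ± 63.4, n = 4), and its EN levels 21.6, 33.9 and 23.3 CPM (26.3 ± 6.67, n = 3). RGCs were above IPCs on 2 of 4 days, and both progenitor classes were above ENs on each shared day with no overlap of ranges. Cdon, the relative of Boc, did not share that IPC level. It was at 70.2, 186.4, 73.1 and 63.7 CPM in RGCs (98.4 ± 58.8, n = 4), 60.8, 0.168, 21.04 and 13.2 CPM in IPCs (23.8 ± 26.1, n = 4) and 0, 37.1 and 1.57 CPM in ENs (12.9 ± 20.997, n = 3). The ranges of RGCs and IPCs did not overlap for Cdon, while those of IPCs and ENs did. A single cell gave 33.7% of the Cdon counts of all ENs, and 22.7% of those of all IPCs.

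Ptch1, the receptor and a target gene, was low in every class. Its RGC levels were 14.8, 36.3, 12.2 and 5.69 CPM (17.2 ± 13.3, n = 4), its IPC levels 26.96, 13.5, 0 and 1.42 CPM (10.5 ± 12.6, n = 4) and its EN levels 0, 4.17 and 1.38 CPM (1.85 ± 2.12, n = 3). RGCs lay above ENs without overlap, but the ranges of IPCs and RGCs overlapped. Smo, the transducer that Ptch1 holds in check, varied least between the classes in its daily mean level. It was at 32.7, 36.5, 34.4 and 23.97 CPM in RGCs (31.9 ± 5.499, n = 4), 9.23, 4.47, 29.98 and 26.5 CPM in IPCs (17.5 ± 12.6, n = 4) and 28.7, 29.4 and 12.2 CPM in ENs (23.4 ± 9.70, n = 3). The Smo ranges of all 3 classes overlapped, although RGCs were above ENs on 3 of 3 days. Its EN levels came from 1, 7 and 9 cells with a read, and its IPC levels of days 1 and 2 from 1 and 2 cells. The share of cells with a Smo read, given below, was lower in ENs than in RGCs.

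Gli3 was the steadiest member in RGCs. Its levels there were 301.004, 384.4, 347.2 and 314.2 CPM (336.7 ± 37.3, n = 4), against 62.2, 52.2, 140.5 and 75.7 CPM in IPCs (82.7 ± 39.8, n = 4) and 0, 22.2 and 11.2 CPM in ENs (11.1 ± 11.1, n = 3). The 3 classes did not overlap in any pair, and the RGC mean was 4.07-fold the IPC mean and 30.3-fold the EN mean. Gli2, the main activator, followed another course. It was at 156.8, 191.3, 38.4 and 37.5 CPM in RGCs (105.996 ± 79.8, n = 4), 33.1, 64.4, 33.6 and 22.1 CPM in IPCs (38.3 ± 18.2, n = 4) and 91.1, 18.1 and 28.3 CPM in ENs (45.8 ± 39.5, n = 3). IPC and EN levels of Gli2 overlapped. Gli1, the target and activator, was close to absent: 1.28, 3.87, 1.34 and 0.572 CPM in RGCs, 7.04, 2.41, 0 and 0 CPM in IPCs and 0.0572, 0 and 0 CPM in ENs. Its pooled level was below 5 CPM in every group compared, so it was not tested.

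**Figure D1:**
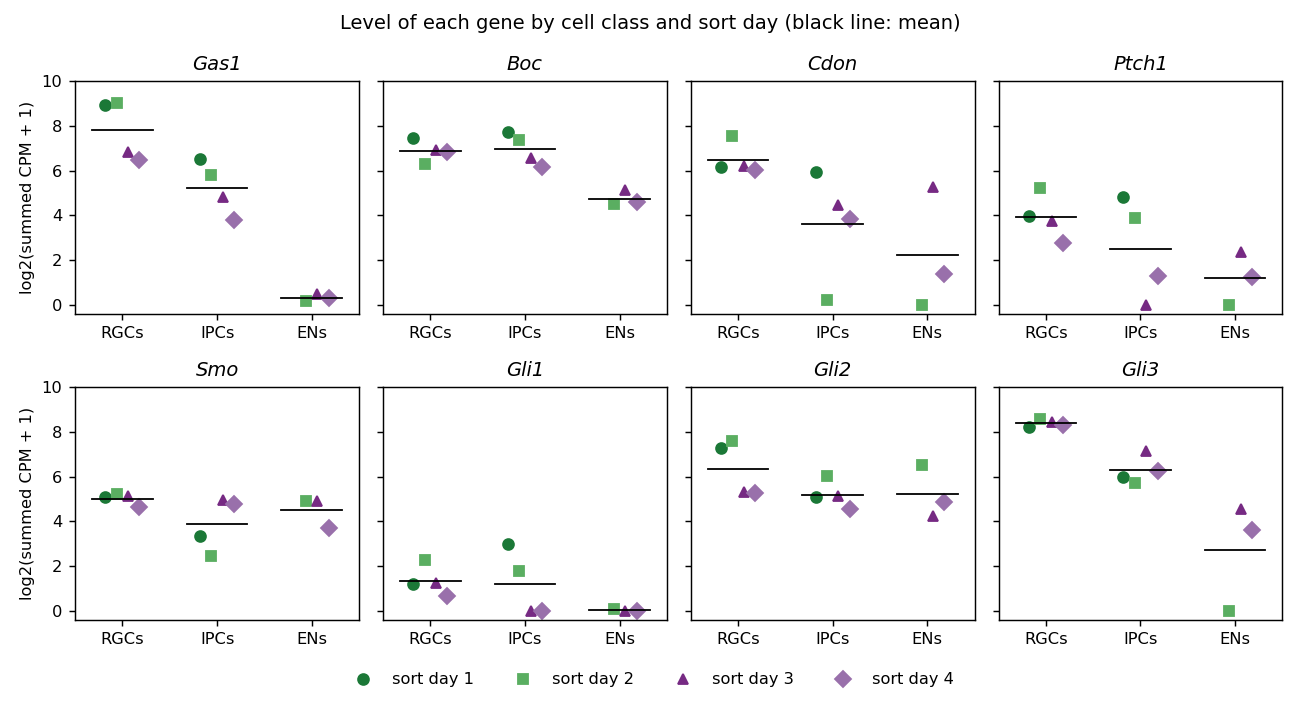
Summed CPM on a log2(CPM + 1) axis for each of the 8 genes in RGCs, IPCs and ENs; each marker is 1 sort day with at least 10 cells of the class, and the black line is the mean of the plotted values. Gas1 and Gli3 step down from RGCs to ENs, and Boc is as high in IPCs (134.7 CPM on average) as in RGCs (121.4 CPM). Smo lies at similar heights in all 3 classes, in ENs from 1, 7 and 9 cells with a read on days 2 to 4.

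Without overlap of the daily ranges, 5 of the 8 members (Gas1, Boc, Cdon, Ptch1 and Gli3) were higher in RGCs than in ENs and none was lower, where 17.3% of 10698 genes tested were higher in that sense and 12.9% lower. RGCs exceeded IPCs without overlap for 2 members, Gli3 and Cdon (7.5% of 10418 genes, with 3.9% lower), and IPCs exceeded ENs for 3, Gli3, Boc and Gas1 (8.98% of 10290 genes, with 10.2% lower). Within sort days all 8 members were higher in RGCs than in ENs on 3 of 3 days, against 32.5% of genes (Gli1 is not among those tested), and 4 (Gas1, Cdon, Gli2 and Gli3) were higher in RGCs than in IPCs on 4 of 4 days, against 19.9%. Cdon lost its separation from IPCs in 2 of 10 alternative settings, under TMM scaling and when each cell weighed the same (its lowest RGC day was 63.7 CPM and its highest IPC day 60.8 CPM), and Gli3 kept it in each. Gli3, Gas1, Boc and Cdon stayed above ENs in RGCs in each of 10 alternative settings. Ptch1 overlapped in 2 of them, when each cell weighed the same and in Hes5_GFP cells alone.

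Levels of different genes can be compared only per length, here as CPM per kilobase of exon. In RGCs the order of means was Gas1 (101.6 ± 78.5), Gli3 (35.1 ± 3.89), Boc (27.3 ± 8.87), Gli2 (15.4 ± 11.6), Cdon (12.8 ± 7.63), Smo (5.67 ± 0.978), Ptch1 (1.22 ± 0.936) and Gli1 (0.354 ± 0.289, each SD over 4 days). Gas1 and Gli3, Gli3 and Boc, Gli2 and Cdon, Cdon and Smo, and Ptch1 and Gli1 were each closer than the larger of their spreads over days. In ENs the order changed to Gli2 (6.67 ± 5.75), Boc (5.90 ± 1.499), Smo (4.17 ± 1.73), Cdon (1.67 ± 2.72), Gli3 (1.16 ± 1.16), Ptch1 (0.130 ± 0.150), Gas1 (0.0807 ± 0.0465) and Gli1 (0.00382 ± 0.00661, n = 3 days). By these means Gas1 went from the first place per length in RGCs to the last but one in ENs. Its first place rests mostly on sort days 1 and 2 (489.9 and 513.6 CPM, against 111.2 and 88.9 CPM on days 3 and 4). On day 4 Gas1 lay below Gli3 per length in RGCs. The first 3 genes in ENs did not differ beyond their spread.

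By the share of cells with a read at equal depth, pooled over sort days, the order was RGCs, IPCs and ENs for every member. The daily mean levels did not share this order for Boc and Gli1 (higher in IPCs than RGCs) or Gli2 and Smo (higher in ENs than IPCs). For Gli1 and Ptch1 the shares in IPCs and ENs rest on few cells, so their order is not firm. Each cell was thinned at random to 50000 counts so that depth was equal, which left out the shallower 11.03% of cells (70 RGCs, 13 IPCs and 40 ENs; 58 Hes5_GFP and 65 CAG_mRFP) and kept 992. Gli3 was read in 83.9% of RGCs (95% exact binomial interval 80.6 to 86.9), 39.9% of IPCs (32.6 to 47.5) and 7.66% of ENs (4.68 to 11.7). Gas1 was read in 60.8% of RGCs (56.6 to 64.8), 16.3% of IPCs (11.2 to 22.6) and 0.806% of ENs (0.0978 to 2.88). For Boc the shares were 40.8%, 32.6% and 13.3%, for Cdon 35.5%, 12.4% and 5.24%, and for Gli2 33.6%, 29.2% and 15.7%. Smo was read in 17.1%, 11.2% and 5.65% of cells, Ptch1 in 5.83%, 3.37% and 2.02%, and Gli1 in 1.41%, 0.562% and 0.403%. Before thinning, 22 of 1115 cells had a Gli1 read, 16 of them RGCs. IPCs with a Gli1 read then numbered 1 on day 1 and 4 on day 2, a slightly higher share of IPCs than of RGCs. Before thinning, Gli3 was read in 84.3% of RGCs and 10.4% of ENs, and Gas1 in 66.7% and 2.78%.

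**Figure D2:**
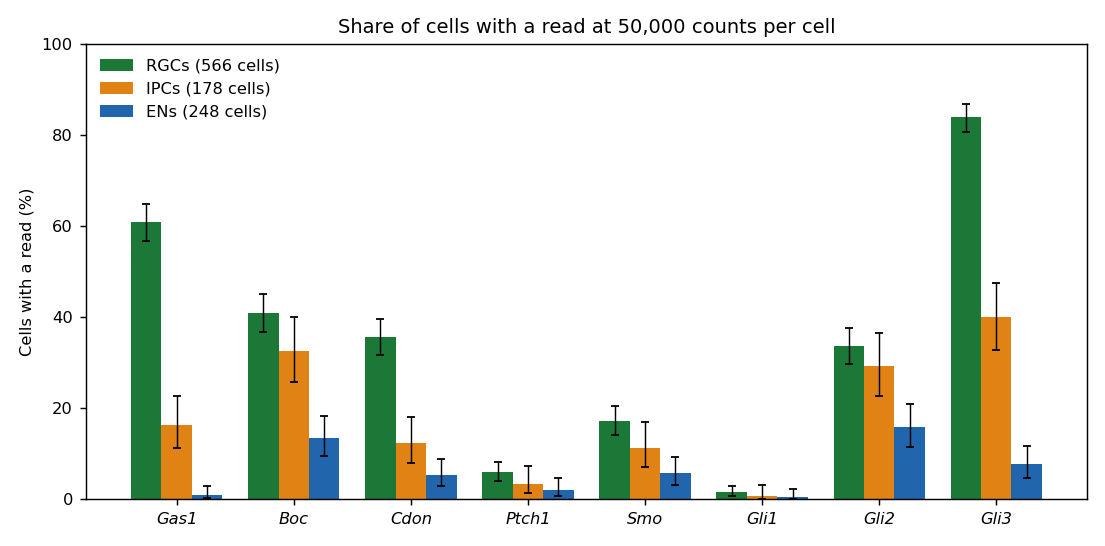
Percentage of cells of each class with at least 1 read of the gene after thinning to 50000 counts per cell; bars are shares and error bars 95% exact binomial intervals that cover counting error only. Gli3 and Gas1 separate RGCs (83.9% and 60.8%) from ENs (7.66% and 0.806%) most widely, and Gli2 the least among the genes read in over 20% of RGCs.

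An RGC held reads of 2.79 of the 8 genes on average at that depth, an IPC 1.46 and an EN 0.508. At least 3 members were read in 57.2% of RGCs, 18.5% of IPCs and 1.61% of ENs, while 4.42%, 25.3% and 59.7% of cells had none. The coreceptors were read in the same RGC slightly more often than the product of their single shares: Boc with Gas1 in 28.8% (product 24.8%), Boc with Cdon in 16.4% (product 14.5%) and Cdon with Gas1 in 24.4% (product 21.6%). Gli2 with Gli3 was read in 29.2% of RGCs (product 28.2%). Such an excess was not particular to the coreceptors: Gli2 with Boc was read in 16.4% (product 13.7%), Smo with Gas1 in 12.4% (product 10.4%) and Gli3 with Boc in 37.3% (product 34.3%). Gli1 with Smo, Smo with Ptch1 or Cdon, and Ptch1 with Gli2, Cdon or Gas1 lay below their products. These are descriptions over cells of several sort days, with no test. The part of the number of genes read per cell was not tested.

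The 8 deposited clusters refine the class picture. Clusters 0, 1, 3 and 7 are RGC clusters, 4 and 6 hold mostly IPCs, and 2 and 5 mostly ENs. Pooled over sort days, Gli3 was at 324.6, 351.7 and 354.5 CPM in clusters 0, 1 and 3 and at 181.6 CPM in cluster 7 (on day 3, the 1 day on which cluster 7 reached 10 cells, 366.6, 308.1, 396.8 and 270.1 CPM). The 72 cells of cluster 7 were shallow (median 97172 counts and 1168 genes), and Gli3 was read in 40% of thinned cells against 86.02% to 91.5% in the other RGC clusters. Boc was at 232.1 CPM in cluster 7 pooled, with 49.02% of its counts from 1 cell, but at 46.1 CPM there on day 3, below the 120.03 to 141.6 CPM of clusters 0, 1 and 3 that day. Pooled Gas1 levels mix the sort days: cluster 3, whose cells were all called G2M, reached 10 cells on days 3 and 4 only and was at 114.8 CPM pooled, against 201.5 to 211.8 CPM in clusters 0, 1 and 7. On day 3 Gas1 was at 125.7 CPM in cluster 3 and at 123.2, 89.1 and 77.6 CPM in clusters 0, 1 and 7, and on day 4 at 90.4 CPM in cluster 3 and at 88.4 and 87.6 CPM in clusters 0 and 1, so the RGC clusters with 10 cells that day differed little on day 4. Smo was at 32.6 and 19.7 CPM in EN cluster 2 on days 3 and 4, with reads in 14 cells (8.28%) over all days, and at 0 and 5.47 CPM in EN cluster 5, where 1 cell held all of its counts. In the IPC clusters 4 and 6, Gli3 was at 150.002 and 103.7 CPM on day 3 and at 85.2 and 44.6 CPM on day 4, higher in cluster 4 on both shared days. Gli2 (40.3 and 17.02 CPM on day 3, 23.5 and 50.4 CPM on day 4) had no common order. Ptch1, read in 6 and 3 cells over all days, was at 0 and 0.774 CPM on day 3 and at 0.166 and 3.46 CPM on day 4.

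**Figure D3:**
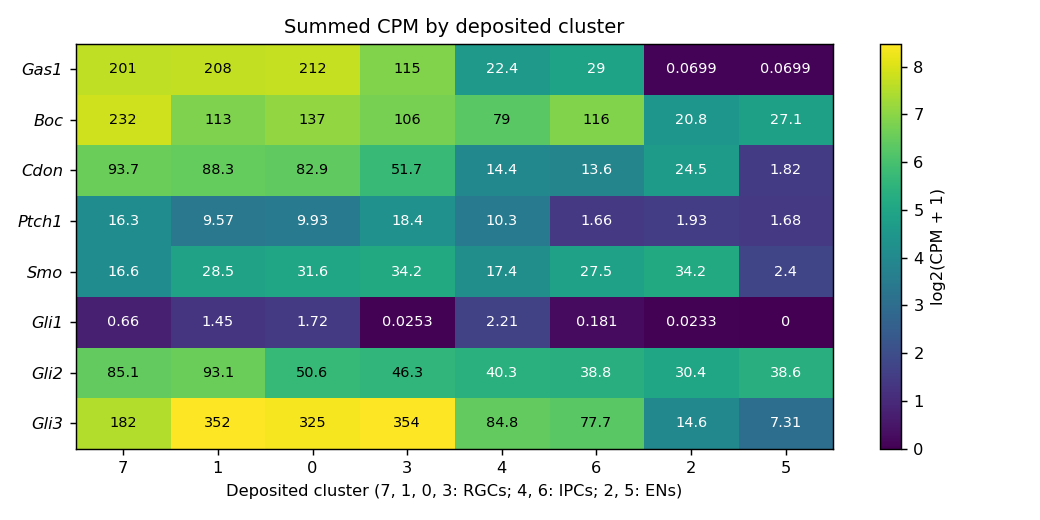
Summed CPM of the 8 genes (rows) in the 8 deposited clusters, pooled over sort days that the clusters hold in unequal parts (columns, ordered from RGC to IPC to EN clusters); the colour is log2(CPM + 1) and the number in a field is the CPM. Gas1 runs from 211.8 CPM in cluster 0 to 0.0699 CPM in both EN clusters, and pooled Gli2 lies between 30.4 and 93.1 CPM in every cluster. On day 3 alone Gli2 ran from 3.57 CPM in cluster 7 and 10.8 CPM in cluster 5 to 57.4 CPM in cluster 1.

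Within RGCs the authors' cell cycle calls put 36.3% of cells in G1, 12.3% in S and 51.4% in G2M. No member passed the test between phases, made with edgeR's quasi-likelihood test over sort days and Benjamini-Hochberg adjustment over all genes: 0 of 7 members tested between G2M and G1, where 0.0096% of 10420 genes passed, and 0 of 7 between S and G1, where 0.0% of 10549 passed. At an unadjusted p under 0.05, 0 members were below it in either comparison, and DESeq2, which called 1.65% and 0.948% of genes, and limma on mean CPM per cell called 0 members too (unadjusted, each had 1 member below 0.05 between G2M and G1, and DESeq2 had 0 and limma 1 between S and G1). Gli3 was at 324.5, 241.9, 253.6 and 308.4 CPM in G1 cells of days 1 to 4 and at 398.5, 222.9, 408.04 and 308.4 CPM in G2M cells, a log2 ratio of 0.22 ± 0.27 (SE). Ptch1 had the largest ratio between G2M and G1, 3.42 ± 1.94 (edgeR adjusted p = 0.9998). It was at 7.56, 0, 11.7 and 0.590 CPM in G1 and 55.4, 24.9, 11.6 and 9.04 CPM in G2M, and the 2 phases differed little on day 3. These levels came from 4, 0, 5 and 6 cells with a read in G1 and 4, 3, 12 and 16 in G2M, so the size of the ratio is not firm. Gas1 was read in 71.6% of thinned G2M cells (66.2 to 76.6), 49.2% of G1 cells (41.9 to 56.5) and 45.8% of S cells (34.02 to 57.996). Its level by day was 583.1, 257.01, 87.2 and 100.96 CPM in G1 and 764.6, 618.5, 133.2 and 98.3 CPM in G2M, higher in G2M on 3 of 4 days, with a log2 ratio of 0.56 ± 0.30 (edgeR adjusted p = 0.9998). The level pooled over days, in which the phases hold the sort days in unequal parts, was 192.2 CPM in G2M and 224.05 CPM in G1. Gli3 shares were 89.4% in G2M, 84.7% in S and 74.9% in G1. These shares pool sort days and sort groups: 78.8% of G1 RGCs were Hes5_GFP, against 93.9% of G2M RGCs. Of the 72 cells of cluster 7, with few genes per cell, 52 were called G1. The part of either in the shares was not tested.

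The sort groups were compared to ask whether cells with an active Hes5 promoter differ in these genes from cells of the same electroporation without it. Over all cells 0 of 7 members tested passed edgeR's quasi-likelihood test (0.399% of 10517 genes did), although 3 (Boc, Gas1 and Gli3) had an unadjusted p under 0.05. DESeq2, which called 11.1% of those genes, called Boc, Gas1 and Gli3, and limma on mean CPM per cell called 0, with 4 at an unadjusted p under 0.05. The group sums mix classes in unequal parts: RGCs were 77.2% of Hes5_GFP cells and 18.8% of CAG_mRFP cells, and with sums over cells, fewer RGCs and less RNA per RGC cannot be told apart.

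Boc was at 229.5, 146.01, 113.3 and 100.2 CPM in Hes5_GFP cells and at 95.2, 16.3, 56.4 and 37.8 CPM in CAG_mRFP cells. Its log2 ratio was 1.68 ± 0.42 (SE), with an edgeR adjusted p of 0.173 (0.00497 to 0.598 over the alternatives). Within the 5 plate batches the Boc ratio ran from 0.87 to 3.06, all higher in Hes5_GFP. Gas1 was at 354.4, 283.5, 95.5 and 69.2 CPM in Hes5_GFP cells and at 350.7, 70.1, 11.9 and 8.28 CPM in CAG_mRFP cells, a log2 ratio of 2.08 ± 0.57 (adjusted p = 0.209, 0.00162 to 0.840 over the alternatives). The 2 groups were level on day 1 and apart on the other days, and within plate batches the Gas1 ratio ran from 0.02 to 3.55. Gli3 was at 197.3, 237.99, 308.1 and 235.2 CPM against 248.03, 28.05, 61.8 and 75.1 CPM, a log2 ratio of 1.72 ± 0.58 (adjusted p = 0.281, 0.0144 to 0.688), and day 1 alone had the CAG_mRFP cells higher (within plate batches, -0.33 to 2.86). Without day 1 edgeR called Gli3 (log2 ratio 2.35, adjusted p = 0.0401) and Gas1 (2.70, adjusted p = 0.0327). Cdon was at 90.9, 110.98, 65.3 and 51.2 CPM against 33.9, 0, 32.004 and 6.29 CPM (log2 ratio 2.88 ± 1.64, edgeR adjusted p = 0.506). Within plate batches its ratio ran from 0.45 to 6.76.

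The other members differed less. Gli2 was at 129.5, 125.6, 37.3 and 38.6 CPM in Hes5_GFP cells and 97.3, 102.4, 22.1 and 18.5 CPM in CAG_mRFP cells (log2 ratio 0.63 ± 0.29, edgeR adjusted p = 0.408), and its plate batches ran from -0.10 to 2.02. Smo was at 32.7, 24.4, 33.6 and 22.1 CPM against 12.6, 21.4, 29.7 and 19.3 CPM (0.48 ± 0.55, adjusted p = 0.750; plate batches -0.91 to 1.86). Ptch1 was at 5.47, 29.8, 10.2 and 4.46 CPM against 32.8, 0, 3.59 and 1.99 CPM (1.48 ± 2.27, adjusted p = 0.815; plate batches -2.39 to 5.08), and its groups overlapped widely. Hes5_GFP cells were above CAG_mRFP cells on 4 of 4 days for 5 of the 8 members (Gas1, Boc, Cdon, Smo and Gli2), against 16.3% of genes, and on 3 of 4 days for Gli1, Gli3 and Ptch1.

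Within RGCs, where both groups reached 10 cells on days 1, 3 and 4, the ratios of Cdon, Gas1, Gli3 and Boc were smaller than over all cells, a difference that was not tested. No member passed (0 of 7 by edgeR, DESeq2 or limma, none with an unadjusted p under 0.05; 0.0% of 10405 genes passed by edgeR and 1.23% by DESeq2). Gli3 was at 253.2, 356.5 and 299.1 CPM in Hes5_GFP RGCs and 401.3, 214.3 and 544.1 CPM in CAG_mRFP RGCs, a log2 ratio of -0.27 ± 0.39 (edgeR adjusted p = 0.9994, as for every member here). Gas1 was at 405.6, 114.9 and 89.2 CPM against 666.8, 58.1 and 84.5 CPM (0.11 ± 0.41), and Boc at 188.8, 124.4 and 112.7 CPM against 140.9, 74.3 and 122.2 CPM (0.35 ± 0.41). Cdon, at 82.7, 77.1 and 64.3 CPM against 43.99, 15.98 and 55.1 CPM (1.12 ± 0.73), and Gli2, at 163.3, 39.5 and 38.9 CPM against 143.1, 21.6 and 16.8 CPM (0.76 ± 0.57), were higher in Hes5_GFP RGCs on 3 of 3 days. Smo (0.05 ± 0.99) and Ptch1 (0.09 ± 2.18) had ratios near 0 whose sign turned under TMM and DESeq2 scaling, and that of Gas1 turned under DESeq2. The RGCs of the sort groups also differed in make-up: Hes5_GFP cells were 78.8% of G1 RGCs and 93.9% of G2M RGCs. Gas1 and Gli3 were read in a smaller share of G1 than of G2M cells. On day 3 a set of 22 CAG_mRFP RGCs had a median of 16363 counts, with Gli3 at 113.85 CPM and Boc at 0 CPM. Thinning kept 21 CAG_mRFP RGCs of that day. The part of phase in the group differences was not tested. The thinned share of RGCs with a read was higher in Hes5_GFP on 3 of 3 days for Cdon (37.2% ± 2.505 against 20.8% ± 5.71), Gas1 (64.7% ± 9.34 against 49.3% ± 20.3), Gli2 (39.6% ± 13.4 against 27.5% ± 17.1) and Gli3 (85.6% ± 3.93 against 76.4% ± 16.8, SD, n = 3 days). A two-sided exact sign-flip permutation test over 3 days cannot go below 0.25, and gave p = 0.25 for these 4 and for Smo, whose share was lower in Hes5_GFP on 3 of 3 days (17.5% ± 2.28 against 22.4% ± 3.04).

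**Figure D4:**
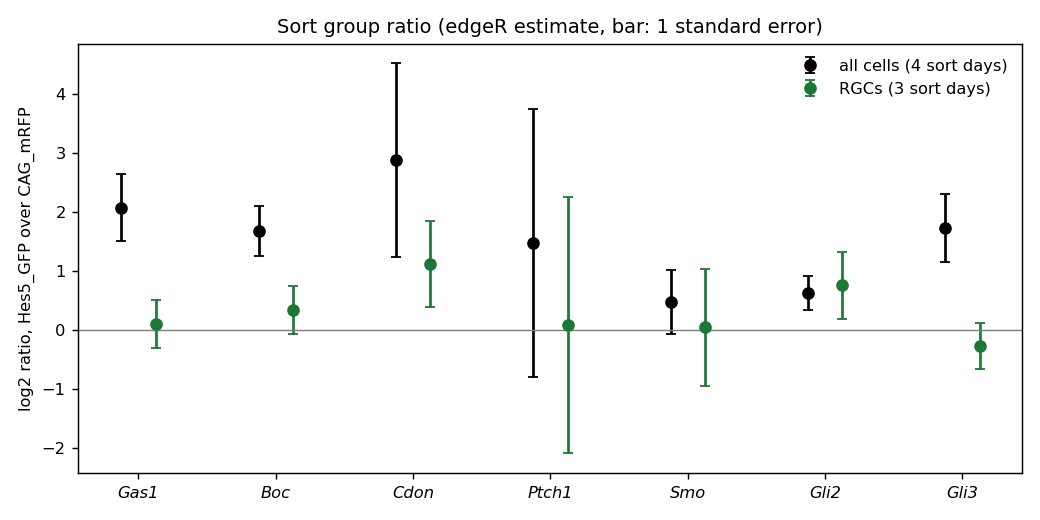
Estimated log2 ratio of Hes5_GFP over CAG_mRFP for 7 members over all cells (black, 4 sort days) and within RGCs (green, 3 sort days); bars are 1 standard error of the edgeR fit. The all-cell values of Gas1, Boc and Gli3 (2.08, 1.68 and 1.72) stand above 0 and their RGC values (0.11, 0.35 and -0.27) lie near it.

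In IPCs and ENs both groups reached 10 cells on days 3 and 4 only. No member passed in either class by edgeR (0 of 6 tested in each; 0.0% of 9903 genes in IPCs and 0.0% of 10020 in ENs; 0 members with an unadjusted p under 0.05; limma called 0 in both, with 1 unadjusted in IPCs), whereas DESeq2 called Gas1 in IPCs, where it called 4.33% of genes, and Gli2 in ENs, where it called 7.86%. Gas1 in IPCs was at 35.5 and 18.4 CPM in Hes5_GFP cells and 7.64 and 0 CPM in CAG_mRFP cells (log2 ratio 4.96 ± 2.49, edgeR adjusted p = 1). Cdon in IPCs was at 26.3 and 18.8 CPM against 8.47 and 0.105 CPM (4.17 ± 2.34, adjusted p = 1). Gli2 in ENs was at 32.9 and 71.03 CPM against 13.4 and 20.7 CPM (1.54 ± 0.95, adjusted p = 0.9999). The difference of the sort group ratio between 2 classes was tested directly for 21 combinations of member and class pair, and 0 passed (0.00894% of 11180 genes did between RGCs and ENs, 0.0% between the other class pairs). The lowest edgeR unadjusted p, 0.0447, and the only 1 under 0.05, was that of Gas1 between RGCs and ENs (adjusted p = 0.748).

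Gas1 and Gli2 also moved with the sort day. In RGCs the lower of days 1 and 2 was 4.41 times the higher of days 3 and 4 for Gas1 and 4.09 times for Gli2; a limit of 4-fold on CPM + 1, chosen after these values were seen, was passed by 0.939% of 9904 genes. Ptch1 was also higher on both early days, by a ratio of 1.21 (18.1% of genes had both early days above both late days), and the other 5 members were not. The cell table names 3 library preparation dates. Day 2 RGCs were prepared on dates 1 and 3, and Gas1 was at 497.04 and 610.7 CPM in them, from cells with median totals of 989700 and 88278 counts. RGCs of days 3 and 4 prepared on date 3 had 119.8 and 90.04 CPM of Gas1, and those prepared on date 2 had 109.3 and 84.6 CPM. The day 2 value of date 3 rests on 1 set of 28 Hes5_GFP cells, and the parts of sort day and preparation date were not tested. Gli2 was at 209.1 CPM in day 2 RGCs of date 1 and at 87.3 CPM in those of date 3, and between 31.5 and 39.2 CPM on days 3 and 4, so its level differed between preparation dates on day 2 as well as between sort days. Gli3 lay between 272.4 and 535.9 CPM over all 7 combinations.

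A single plate held Hes5_GFP RGCs of sort days 2 (28 cells, median 88278 counts) and 4 (52 cells, median 152670 counts). Gas1 was at 610.7 CPM in the former, with a read in 96.4% of cells, and at 64.6 CPM in the latter, with a read in 76.9%. Gli2 was at 87.3 and 39.5 CPM, Gli3 at 535.9 and 453.9 CPM, Boc at 153.2 and 106.96 CPM, Cdon at 154.3 and 93.8 CPM and Smo at 44.4 and 22.9 CPM. Among the members, Gas1 and the barely detected Gli1 (7.79 and 0 CPM) passed 4-fold on CPM + 1, as did 11.2% of 10383 genes. Sort day 2 was here 1 set of 28 cells, and the labels do not say how sort days differed.

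**Figure D5:**
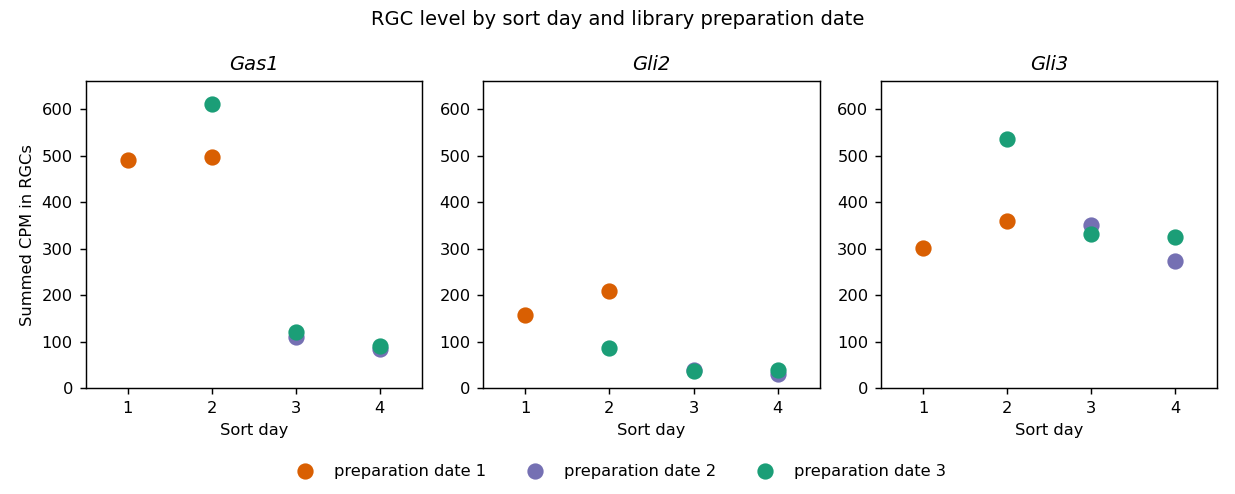
Summed CPM of Gas1, Gli2 and Gli3 in RGCs by sort day, coloured by library preparation date; each point holds at least 10 RGCs. The day 2 point of preparation date 3 lies with the early days for Gas1 (610.7 CPM) and between early and late days for Gli2 (87.3 CPM), and Gli3 shows no such step.

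Other genes of the pathway were taken from lists by role. Of the 58 that could be tested between the sort groups over all cells, 0 passed by edgeR (10 at an unadjusted p under 0.05, where 13.6% of all genes were), 0 of 59 by limma (10) and 7 by DESeq2, namely Ccnd2, Cdk6, Fgf15, Gpc3, Gpc4, Gsk3b and Pax6 (15 unadjusted). DESeq2 called 11.1% of 10517 genes in that comparison (22.8% unadjusted), and 7 of 58 is near that share. Between classes, the counts below are of genes whose daily ranges did not overlap, beside 17.3% of 10698 genes higher and 12.9% lower in RGCs than in ENs. Of 8 receptors and binding proteins in the table, 4 could be tested between classes and all 4, glypicans, were higher in RGCs than in ENs without overlap; the most abundant were Gpc4 (281.2 ± 35.5 CPM in RGCs, 75.9 ± 34.3 in ENs) and Gpc1 (160.7 ± 55.2 and 64.9 ± 13.3), cell surface proteoglycans. Of 16 target genes in the table, 9 could be tested, 5 were higher and 0 lower; the most abundant were Ccnd2, a G1 cyclin (1989 ± 715.3 CPM in RGCs, 717.1 ± 384.2 in ENs), and Sfrp1, a secreted Wnt antagonist (578.2 ± 116.6 and 138.8 ± 22.4). Ptch1 is in that list too, and several of these targets answer to other pathways as well. Of 36 cytoplasmic and ciliary regulators tested, 6 were higher and 7 lower, with a median log2 ratio of -0.15 beside 0.11 for all genes; the most abundant, Gsk3b, a kinase that marks Gli proteins for processing, was at 645.2 ± 204.6 CPM in RGCs and 1446 ± 527.4 in ENs, and Tmed2 at 451.1 ± 168.7 and 346.4 ± 85.9. Of 6 tested genes that lie downstream of Gli3 in the dorsal telencephalon 4 were higher and 0 lower, among them Cdk6 (362.6 ± 76.6 and 110.8 ± 54.6) and Pax6 (401.5 ± 32.4 and 45.3 ± 18.5). Of 4 ligand release genes tested, 0 were higher and 1 lower, and Disp1 was at 22.7 ± 18.1 and 9.24 ± 10.99 CPM and Scube1 at 3.64 ± 3.38 and 14.3 ± 6.53 CPM.

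The genes whose profile over the 11 class-by-day sums was most like that of a member were named by Pearson's r among 6857 genes, as a description. Nes, the radial glial intermediate filament nestin, was closest to Gli3 (r = 0.982), before Wscd1 (0.968) and Stag2 (0.966). Zfp36l1 (0.990), Fgfr2 (0.979) and Cdca7l (0.975) were closest to Gas1, Tox3 (0.952), Plp2 (0.936) and Ccnd1 (0.933) to Boc, and Elovl5 (0.944), Gyg (0.942) and Nfe2l2 (0.932) to Cdon. Eif4enif1 (0.957), Mfsd5 (0.955) and Wrnip1 (0.931) were closest to Gli2, and Iars (0.961), Ube2e2 (0.936) and Sdad1 (0.933) to Smo. Among the members themselves Gas1 was closest to Gli3 (0.857) and Boc (0.857), and the highest value of Gli2 was 0.546, with Gas1. The sums share sort days and cell classes, so these values carry no test.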

How the data were processed

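Libraries of single cortical cells were made by a modified form of Smart-seq2, per the labels' protocols. HISAT2, Seurat 2 and the build mm10 appear in the submitters' processing notes. No source used here gives the annotation or the counting program. The authors deposited estimated counts per gene and cell, which are whole numbers: back-calculation from the natural log values the authors deposited (of 1 plus scaled counts) showed that 2.8% of nonzero entries were fractional (tolerance 0.01) and had been rounded. The authors also deposited, per cell, the class, cluster, phase, dates and the mitochondrial fraction of counts. The entry AY036118 held 2.68% of counts and stayed in.

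Here counts were summed per sort day and class, phase or group with at least 10 cells (5 for phases) and given as CPM. Genes with at least 5 CPM in either arm were tested with edgeR 4.0.16 (quasi-likelihood, total counts, sort day as block, Benjamini-Hochberg at 0.05), with DESeq2 1.42.0 and limma 3.58.1 as alternatives in R 4.3.3; classes were described by overlap of daily CPM. The sort day pairs the groups because the cell table gives it. The 3 cells of another date entered pooled values only. Shares used thinning to 50000 counts (seed 1) and a sign-flip permutation (scipy 1.17.1). The code was tested on simulated data with known changes. Between sort groups over all cells, edgeR recovered 6.8% of 2-fold and 30% of 4-fold changes there. Within RGCs it recovered 0% and 10.4%, and between G2M and G1 0% and 6.4%. That no member passed therefore does not show that changes of this size are absent. In the simulated sort groups over all cells DESeq2 made 157 false calls and edgeR 1. Named genes are the 8 members, the 2 most abundant genes of each pathway list with any that passed a test, and the 3 most alike genes for each member with at least 20 CPM in a class; the members and lists were chosen with earlier results of these data known. Alternatives were other scaling, filters, tools, cell weights, leaving out days, shallow cells, cluster 7 or AY036118, plate batches as units and, chosen after seeing the data, leaving out the shallowest plate or using Hes5_GFP cells alone.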

Additional observations from a re-analysis of the deposited data

Results flagged for a closer look

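In 56 sets of 4 daily levels (each member in both sort groups, in RGCs and IPCs, and in the 3 phases of RGCs), 5 held a day that stood apart from the other days by Dixon's 95% criterion, where chance gives about 1 in 20. Cdon in RGCs was at 186.4 CPM on sort day 2 against 63.7 to 73.1 CPM on the other days. Sort day 2 also stood apart in S phase RGCs, a set of 9 cells that day, for Cdon (111.3 CPM) and for Gas1 (446.3 CPM), and in G1 RGCs, 7 cells, for Gli1 (15.9 CPM). Ptch1 in CAG_mRFP cells was at 32.8 CPM on sort day 1, from 24 cells, against 0 to 3.59 CPM on the other days.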

How the results depend on the processing

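The members called between sort groups over all cells were 0, 3 under DESeq2 and 0 to 2 when a sort day was left out (2 without day 1). Leaving out days moved none of the 0 calls within RGCs (0 to 0) or between phases (0 to 0), and in IPCs and ENs, with 2 days, no day could be left out; DESeq2 called 1 member in each. RGCs lay above IPCs without overlap for 2 members (Gli3 and Cdon), 1 under TMM (Gli3) and 2 to 4 without a day; above ENs for 5 (5 to 6 without a day); IPCs lay above ENs for 3 (3 to 4). The share of RGCs with a read was higher in Hes5_GFP on every day for 4 members (4 to 5 without a day). Which members these were also moved. With thinning to 100000 counts, Gas1 was higher on 2 of 3 days. Without cluster 7, Gli2 was higher on 1 of 2 days and Boc on 2 of 2. No other count moved by over 1.5 times.

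Without the replicate block for the sort day, no call changed, but signs turned for ratios near 0 or with wide errors: within RGCs Smo -0.0045, Ptch1 -0.95 and Gas1 -0.41, in IPCs Gli2 -0.10, in ENs Gli3 2.23 and Ptch1 1.69, between G2M and G1 Cdon 0.20 and between S and G1 Gli2 0.0669. In RGC sort groups the sign also turned under TMM (Smo -0.0395, Ptch1 -0.0437), DESeq2 (Smo -0.15, Ptch1 -0.15, Gas1 -0.0753; the median of all genes moved by -0.19), mean CPM per cell (Gli3 0.16) and without cluster 7 (Smo -0.33), and over left-out days ran from -0.76 to 0.0344 for Gli3, -0.25 to 0.57 for Smo, -1.30 to 1.52 for Ptch1 and -0.32 to 0.53 for Gas1. With mean CPM per cell, Smo in IPCs was 0.30, and in ENs Ptch1 0.20, Boc 0.0339 and Cdon 0.11. Between G2M and G1, mean CPM per cell gave Gli3 -0.0831, Smo -0.65 and Cdon 0.0592, cells with at least 50000 counts Smo -0.34, TMM Cdon 0.0166 and Hes5_GFP cells alone Boc 0.40; left-out days gave Smo -0.36 to 1.09, Boc -0.56 to 0.39 and Cdon -0.32 to 0.23. Between S and G1, mean CPM per cell gave Gli2 0.23 and Gli3 -0.30, cells with at least 50000 counts Gli3 -0.17 and Ptch1 -1.16; left-out days gave Gli2 -0.42 to 0.0256, Gli3 -0.17 to 0.67, Ptch1 -0.68 to 2.47 and Boc -0.72 to 0.0634. The share difference in RGCs turned for Smo (1.06 points) and Boc (2.46) without thinning, and for Boc without cluster 7 (5.10) and over left-out days (-12.8 to 10.3). The cause was not tested. Gli1, read in 22 cells, could not be tested at this depth.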
